A study of Mus musculus with 6 samples.

Results

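This section describes 10 transcripts that neutrophils and monocytes are known for, S100a8, S100a9, Il1b, Il1a, Cxcr2, Csf3r, Lyz2, Cd14, Cd68 and Tnf, as they were counted in RNA-seq libraries of mouse colon epithelial cells. Members were chosen by name: a row of the deposited count table belonged when its gene symbol was one of the 10, and 10 of the 55487 listed genes did. RNA was taken from intestinal epithelial cells (IECs) of the colon after dextran sodium sulphate (DSS), a detergent-like polymer that injures the colonic epithelium and sets off colitis. The comparison set 3 libraries of Nsd2 f/f mice, whose Nsd2 is flanked by loxP sites, against 3 of Nsd2 Vil-KO mice, where Villin-driven Cre removes this histone H3 lysine methyltransferase from the epithelium and not from blood-derived cells. According to the methods and legends, the mice were bred on C57BL/6J, littermates served as controls, and colitis was induced at 2 months of age with 2% DSS given over 5 days, so both genotypes were treated and no untreated library was analysed here. The sampling day of the RNA-seq mice, and whether a library came from 1 mouse or a pool, are not given in the sources used here. IECs were shaken off tissue pieces after EDTA, with no cell sort named.

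As background, neutrophils are the first leukocytes to enter injured mucosa, and S100A8 and S100A9 form calprotectin, the most abundant protein pair of their cytosol and a stool marker of intestinal inflammation. Monocytes arrive next and, with the macrophages they give rise to, release IL-1 and TNF. The G-CSF receptor, encoded by Csf3r, serves the release of neutrophils from the marrow, and they find tissue through the CXC chemokine receptor encoded by Cxcr2. Epithelial cells can transcribe some of these genes too, among them Il1a, Tnf and S100a8 when inflamed, and bulk libraries do not show which cell a transcript came from. Fewer cells of a type and less RNA per cell cannot be told apart here.

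None of the 10 transcripts separated the genotypes, and most of their spread lay between libraries of the same genotype. Il1b ranged 181-fold across the 6 libraries and Cd14 only 2.47-fold. The library labelled Nsd2 f/f replicate 1 was the highest of the 6 for 7 of the 10 members, and Nsd2 f/f replicate 3 was the lowest for 9 of the 10. The library labelled Nsd2 Vil-KO replicate 2 had the highest S100a8 and S100a9 while its Il1b, Il1a, Csf3r and Lyz2 were low. The criterion was a fold change over 1.2 together with p below 0.05, unadjusted, in edgeR's quasi-likelihood test: 0 of the 10 members passed it, while 482 of the 14650 genes tested did (3.29%). At an adjusted p below 0.05, 0 members and 0 of all genes passed (0%), with 482 genes at an unadjusted p below 0.05. Among the alternative tests, DESeq2 gave 2 genes at an adjusted p below 0.05, neither of them a member. Limma-voom with quality weights gave 0. The genotypes overlapped in all 10 members, and they did not overlap in 1451 of the 14650 genes tested (9.9%). At this share and at 3.29%, 0 of 10 members does not set them apart from all genes.

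The libraries held 15439123 to 20350539 counted reads, and a floor of 3 counts equalled 0.146 to 0.242 CPM, the counts scaled to a common library size with TMM factors. Together the members made up 0.00959% to 0.161% of the counts. Nsd2 itself (chromosome 5, 33820725 to 33897975, GRCm38) ranged over the Nsd2 f/f libraries from 24.6 to 51.2 CPM and over the Nsd2 Vil-KO libraries from 10.4 to 24.2 CPM. The genotypes did not overlap (exact permutation test, two-sided, p = 0.1), but Nsd2 f/f replicate 3 and Nsd2 Vil-KO replicate 1 nearly met. A pair of libraries stood apart: Nsd2 f/f replicate 3 and Nsd2 Vil-KO replicate 2 held 347 and 204 CPM of Xist against 0.0488 to 0.255 CPM in the other 4, and mitochondrial genes took 19.6% of the counts in Nsd2 f/f replicate 3 against 5.51% to 9.13% in the other 5. Epithelial markers were abundant in each library, with a summed level of 18143 to 22370.2 CPM over 10 genes, in which the keratin Krt8 ranged from 3328 to 6346 CPM, Krt19 from 2415 to 5006 CPM and the goblet cell mucin Muc2 from 2246 to 6857 CPM. The labelled cell type was therefore matched by its markers.

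The upstream sequence is shown for the calprotectin pair and for Il1b, since these are the members whose levels parted from each other. Each line gives the 250 bases before the RefSeq start of the gene on GRCm38.p6, 5′ to 3′ on the strand of the gene, with matches to the PU.1 core GAGGAA or the C/EBP motif TTNCNNAA in capitals, as read on either strand. S100a8 lies at chr3:90668821-90669070 on the plus strand, S100a9 at chr3:90695722-90695971 on the minus strand and Il1b at chr2:129371140-129371389 on the minus strand.
S100a8: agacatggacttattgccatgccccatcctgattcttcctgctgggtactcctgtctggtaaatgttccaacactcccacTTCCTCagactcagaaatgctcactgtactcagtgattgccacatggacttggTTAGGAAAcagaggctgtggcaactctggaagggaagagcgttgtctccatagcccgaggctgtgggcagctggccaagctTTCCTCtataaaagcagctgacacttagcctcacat
S100a9: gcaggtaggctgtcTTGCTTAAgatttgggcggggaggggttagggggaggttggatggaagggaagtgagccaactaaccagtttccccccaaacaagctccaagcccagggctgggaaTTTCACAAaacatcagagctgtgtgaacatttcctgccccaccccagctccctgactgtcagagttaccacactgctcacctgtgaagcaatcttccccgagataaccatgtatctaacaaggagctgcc
Il1b: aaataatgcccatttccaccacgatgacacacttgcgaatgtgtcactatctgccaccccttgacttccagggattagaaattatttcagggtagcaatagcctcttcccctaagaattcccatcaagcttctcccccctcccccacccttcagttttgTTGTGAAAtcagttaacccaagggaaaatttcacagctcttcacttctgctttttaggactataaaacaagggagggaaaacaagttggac

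PU.1 and C/EBP proteins are myeloid transcription factors. The PU.1 core was found in 6 of the 9 members in the promoter table (S100a8, Il1a, Cxcr2, Csf3r, Cd68 and Tnf) and in 23.3% of the 32851 windows of that length. The C/EBP letters were found in 7 of the 9 (S100a8, S100a9, Il1b, Il1a, Lyz2, Cd68 and Tnf) and in 36.8% of all windows. An AP-1 motif, TGANTCA, was found in Il1a and Cd68 and in 6.75% of all windows. These are matches of letters, which describe the sequence and not binding.

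The calprotectin genes came first. S100a8 (chromosome 3, 90668978 to 90670035, GRCm38) stood at 197, 34.3 and 3.07 CPM among the Nsd2 f/f libraries, in the order of replicates 1, 2 and 3, and at 33.2, 574 and 23.2 CPM among the Nsd2 Vil-KO libraries. In each genotype 1 library was far above the others. The highest Nsd2 Vil-KO value lay above the Nsd2 f/f range, and the others lay within it. The means were 78.2 ± 104 CPM (SD, n = 3) and 210 ± 315 CPM (SD, n = 3), and the log2 fold change, Nsd2 Vil-KO over Nsd2 f/f, came to 1.42 (standard error 1.56, adjusted p = 0.992 by edgeR's quasi-likelihood test). Without Nsd2 Vil-KO replicate 2 the log2 fold change came to −1.47, so its sign rested on 1 library.

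S100a9 (chromosome 3, 90692632 to 90695721), the partner of S100a8, had 357, 46.5 and 4.69 CPM among the Nsd2 f/f libraries and 49.2, 405 and 9.25 CPM among the Nsd2 Vil-KO libraries, in replicate order as in all such triplets here. Again Nsd2 f/f replicate 1 and Nsd2 Vil-KO replicate 2 were high and Nsd2 f/f replicate 3 was low. The means were 136 ± 193 and 154 ± 218 CPM (SD, n = 3 each), and the log2 fold change came to 0.18 (standard error 1.57, adjusted p = 0.999 by edgeR). It was −2.22 without Nsd2 Vil-KO replicate 2 and 2.58 without Nsd2 f/f replicate 1. The ratio of S100a8 to S100a9 counts was 0.552 to 0.737 in the 3 Nsd2 f/f libraries and in Nsd2 Vil-KO replicate 1 (0.676), 1.42 in Nsd2 Vil-KO replicate 2 and 2.51 in Nsd2 Vil-KO replicate 3.

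Among the cytokines, Il1b (chromosome 2, 129364570 to 129371139), which encodes the IL-1β precursor, had 424, 66.1 and 2.34 CPM among the Nsd2 f/f libraries and 107, 5.88 and 7.76 CPM among the Nsd2 Vil-KO libraries. The lowest and the highest value both came from Nsd2 f/f mice. The means were 164 ± 227 and 40.3 ± 58.0 CPM (SD, n = 3 each), and the log2 fold change came to −2.03 (standard error 1.66, adjusted p = 0.992 by edgeR). Without Nsd2 f/f replicate 1 it was 0.23, and without Nsd2 Vil-KO replicate 1 it was −4.59 with an unadjusted p of 0.0498 and an adjusted p of 0.943 by edgeR. An antisense gene, Il1bos, shares 25 exon bases with Il1b on the opposite strand, and whether counting used strand is not given in the sources used here.

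Il1a (chromosome 2, 129299610 to 129309972) encodes IL-1α, an alarmin that acts on the same receptor as IL-1β. It had 40.6, 6.50 and 0.485 CPM among the Nsd2 f/f libraries and 7.36, 0.666 and 0.511 CPM among the Nsd2 Vil-KO libraries, the last values of each triplet resting on 6 and 10 counts. The libraries ranked in nearly the order of Il1b. The log2 fold change came to −2.48 (standard error 1.45, adjusted p = 0.992 by edgeR), the most negative among the members, and it stayed negative with each library left out, between −4.75 and −0.32. When Nsd2 f/f replicate 3 was left out, Il1a was past the criterion (−3.03, unadjusted p = 0.0456, adjusted p = 1.00 by edgeR's quasi-likelihood test), as it was without Nsd2 Vil-KO replicate 1 (−4.75, unadjusted p = 0.0348, adjusted p = 0.943). Gm14023, on the opposite strand, overlaps 222 exon bases of Il1a. The IL-1α primers of the study's RT-qPCR list match positions 265 to 284 and 453 to 472 of the 1974-base Il1a transcript. A primer sequence of this pair also occurs in Gm14023, and whether both do was not checked.
IL-1α forward: gagagccgggtgacagtatc
IL-1α reverse: tgacaaacttctgcctgacg

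Tnf (chromosome 17, 35199381 to 35202007), which encodes the cytokine TNFα, varied less than the IL-1 genes. It had 32.1, 15.01 and 2.75 CPM among the Nsd2 f/f libraries and 23.3, 16.1 and 15.9 CPM among the Nsd2 Vil-KO libraries. The Nsd2 Vil-KO values all fell within the Nsd2 f/f range. The means were 16.6 ± 14.8 and 18.4 ± 4.20 CPM (SD, n = 3 each), and the log2 fold change came to 0.14 (standard error 0.70, adjusted p = 0.999 by edgeR). The ratio of Tnf to Il1b counts was 0.0757 to 0.227 in Nsd2 f/f replicates 1 and 2 and Nsd2 Vil-KO replicate 1, and 1.17 to 2.74 in the other 3 libraries.

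**Figure D1:**
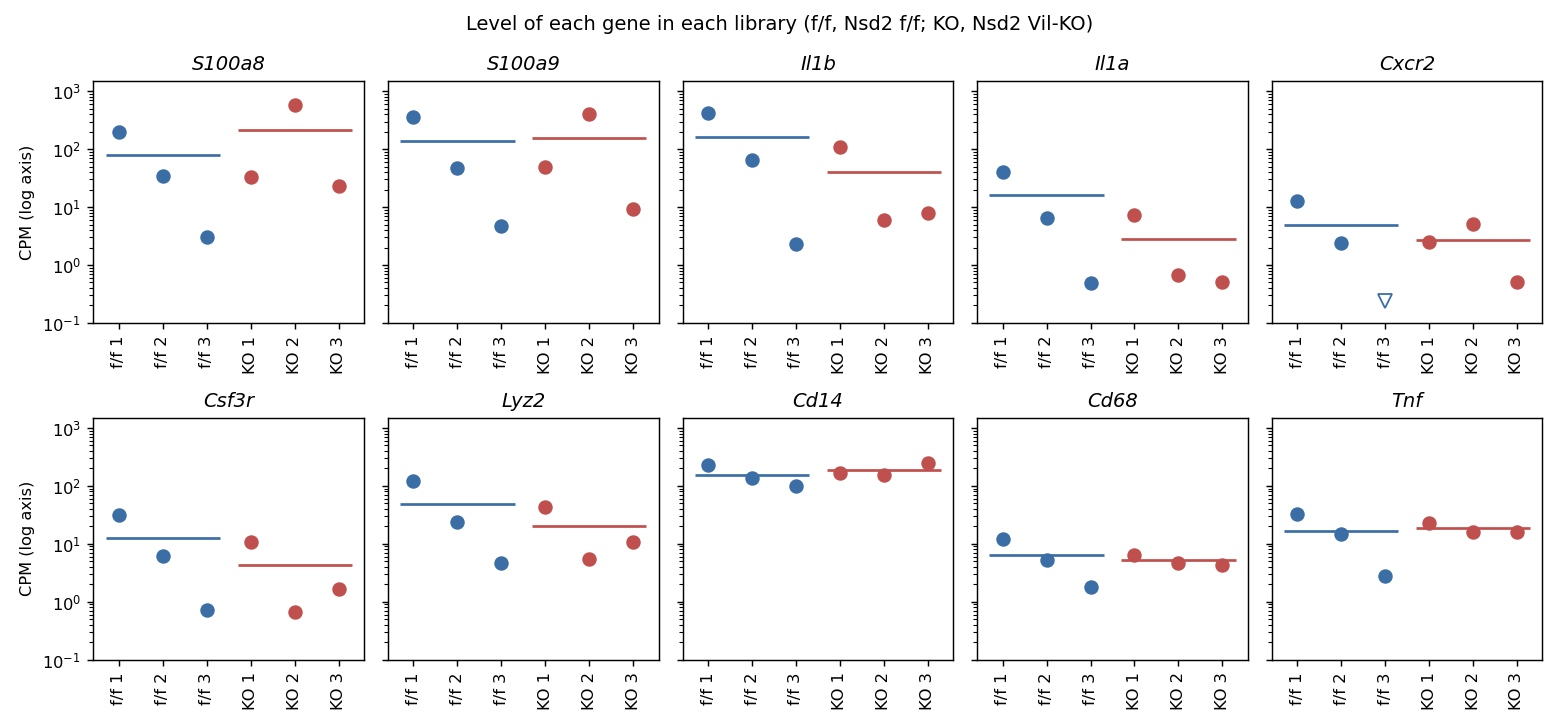
Level of the 10 genes in each library, in CPM on a log axis, with blue points for Nsd2 f/f and red points for Nsd2 Vil-KO replicates 1 to 3, and a line at each group's mean. The open triangle marks Cxcr2 in Nsd2 f/f replicate 3, which had 0 counts and is drawn at the floor of 0.242 CPM. The genotypes overlap in each panel, Nsd2 f/f replicate 3 is lowest in most, and S100a8 reaches 574 CPM in Nsd2 Vil-KO replicate 2, where Il1b is at 5.88 CPM.

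Cxcr2 and Csf3r, the receptors of neutrophils for CXC chemokines and G-CSF, were the least abundant members per exon length. Cxcr2 (chromosome 1, 74153989 to 74161246), the receptor for CXCL1, CXCL2 and CXCL5, stood at 12.5 CPM in Nsd2 f/f replicate 1 and 2.36 CPM in replicate 2 and had 0 counts in replicate 3, which allows up to 0.242 CPM by counting error alone. It had 2.54, 5.10 and 0.511 CPM among the Nsd2 Vil-KO libraries. The 3 Nsd2 Vil-KO values lay inside the Nsd2 f/f range. The log2 fold change came to −0.91 (standard error 1.25, adjusted p = 0.993 by edgeR) and turned to 1.09 without Nsd2 f/f replicate 1.

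Csf3r (chromosome 4, 126024550 to 126044440), the G-CSF receptor and a mark of the neutrophil lineage, had 31.0, 6.26 and 0.727 CPM among the Nsd2 f/f libraries and 10.8, 0.666 and 1.63 CPM among the Nsd2 Vil-KO libraries. Here Nsd2 Vil-KO replicate 2, with 12 counts, was the lowest of the 6 libraries. The log2 fold change came to −1.54 (standard error 1.30, adjusted p = 0.992 by edgeR), and 0.29 without Nsd2 f/f replicate 1. Both receptors are used by neutrophils, yet their ratio was not steady: Cxcr2 to Csf3r counts stood at 0.234 to 0.403 in the 4 libraries low in Xist, at 0 in Nsd2 f/f replicate 3 (0 against 9 counts) and at 7.67 in Nsd2 Vil-KO replicate 2 (92 against 12 counts).

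Cd14 (chromosome 18, 36725067 to 36726798), the co-receptor that hands lipopolysaccharide to TLR4, varied least. It had 234, 135 and 99.1 CPM among the Nsd2 f/f libraries and 165, 155 and 245 CPM among the Nsd2 Vil-KO libraries. The lowest and the highest library differed by 2.47-fold. The means were 156 ± 69.8 and 188 ± 49.5 CPM (SD, n = 3 each), and the log2 fold change came to 0.27 (standard error 0.35, adjusted p = 0.993 by edgeR) and stayed positive, between 0.035 and 0.69, with each library left out. The ratio of Cd14 to Lyz2 counts ran from 1.94 in Nsd2 f/f replicate 1 to 28.3 in Nsd2 Vil-KO replicate 2.

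The last pair encodes proteins of granules and lysosomes. Lyz2 (chromosome 10, 117277331 to 117282321), the lysozyme of myeloid cells, had 120, 23.6 and 4.605 CPM among the Nsd2 f/f libraries and 43.5, 5.49 and 10.8 CPM among the Nsd2 Vil-KO libraries. Nsd2 f/f replicate 1 was the highest library and Nsd2 f/f replicate 3 the lowest, as for Il1b. The log2 fold change came to −1.32 (standard error 1.15, adjusted p = 0.992 by edgeR), and 0.49 without Nsd2 f/f replicate 1. Cd68 (chromosome 11, 69664213 to 69666153), a glycoprotein of macrophage lysosomes, had 12.2, 5.20 and 1.78 CPM among the Nsd2 f/f libraries and 6.44, 4.66 and 4.34 CPM among the Nsd2 Vil-KO libraries. Its log2 fold change came to −0.33 (standard error 0.62, adjusted p = 0.995 by edgeR), and 0.54 without Nsd2 f/f replicate 1.

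Lyz2 has a close copy, Lyz1 (chromosome 10, 117287797 to 117292868), the lysozyme of Paneth cells, so the reads of one could be counted on the other. The Lyz2 and Lyz1 transcripts shared 40.5% of their 25-base stretches and 15.4% of their 50-base stretches, as a share of those of Lyz2, and 0% of their 150-base stretches, the read length in the methods. Lyz1 had 2.87, 4.02 and 5.09 CPM among the Nsd2 f/f libraries and 4.49, 0.388 and 0.868 CPM among the Nsd2 Vil-KO libraries, so its highest library, Nsd2 f/f replicate 3, was the lowest for Lyz2. The ratio of Lyz2 to Lyz1 counts was 41.9 in Nsd2 f/f replicate 1 and 0.905 in Nsd2 f/f replicate 3. The study's RT-qPCR list holds a pair named Lyz, which is shown because its exact match is Lyz1 and not the member. Whether the pair also amplifies Lyz2 was not tested. Both primers match the 1263-base Lyz1 transcript exactly, at positions 227 to 247 and 420 to 440, and each has 2 mismatches to Lyz2, which are in capitals.
Lyz forward: gagaccGaagcacCgactatg
Lyz reverse: cggttttgacaTtgtgTtcgc

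For levels between genes, CPM was divided by exon length in kilobases. The median over the 6 libraries was 92.3 CPM per kilobase for Cd14, 91.7 for S100a9, 48.6 for S100a8, 19.4 for Il1b, 13.1 for Lyz2, 9.75 for Tnf, 3.92 for Cd68, 1.81 for Il1a, 1.09 for Csf3r and 0.804 for Cxcr2. Each neighbouring pair in this order overlapped in its range over libraries. Tnf was above Cd68 in 6 of 6 libraries, whereas Cd14 was above S100a9, and Il1b above Lyz2, in only 3 of 6. Exact permutation tests (two-sided) of the single members gave p between 0.4 for Cd14 and 1.0 for Cd68, where 0.1 is the smallest p that 3 libraries against 3 can give. The median log2 fold change of the 10 members was −0.62, with 4 higher and 6 lower in Nsd2 Vil-KO, against a median of 0.0012 over all genes tested. It was 0.61 without Nsd2 f/f replicate 1.

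**Figure D2:**
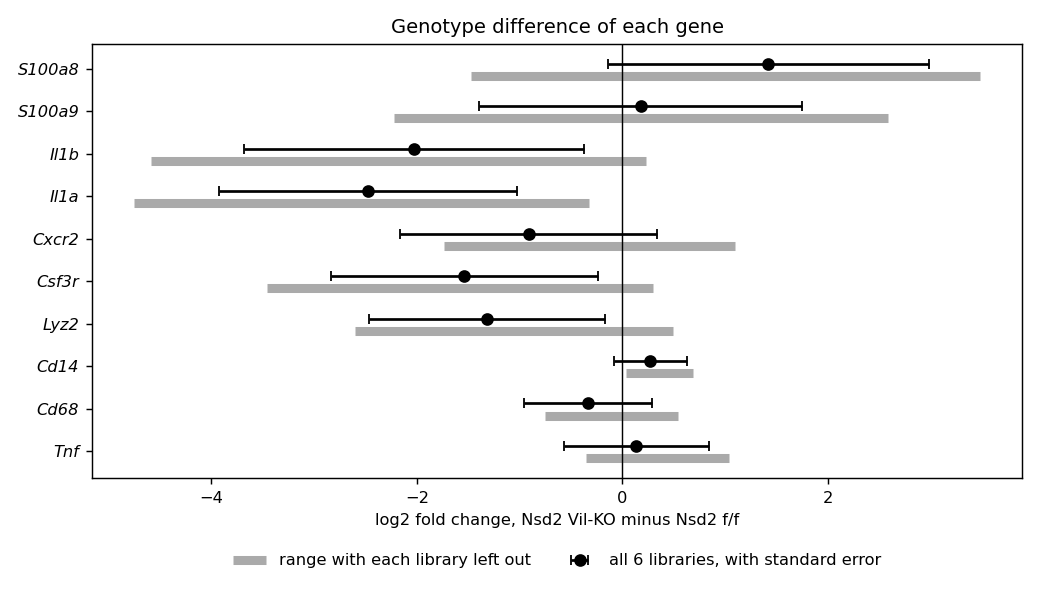
Log2 fold change of each gene, Nsd2 Vil-KO minus Nsd2 f/f, as black points with standard errors from all 6 libraries, and as grey bars the range of values when each library was left out in turn. The bars of S100a8, from −1.47 to 3.48, and of S100a9 cross 0 widely, and those of Il1a and Cd14 do not cross it.

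The members did not move as a block, which is most plain within Nsd2 Vil-KO replicate 2. S100a8 to Il1b counts stood at 0.31 to 2.99 in the other 5 libraries and at 97.6 there (10345 against 106 counts). S100a8 to Csf3r counts stood at 3.07 to 14.2 in the other 5 and at 862 in Nsd2 Vil-KO replicate 2, and S100a9 to Csf3r counts at 4.54 to 11.5 and at 608. By contrast the ratio of Il1b to Csf3r counts was 8.83 in that library, within the 3.22 to 13.7 of the other 5, and that of Il1b to Il1a was also 8.83, within 4.83 to 15.2. S100a8, S100a9 and Cxcr2 were thus high together relative to Il1b, Il1a, Csf3r and Lyz2 in 1 library, which has no replicate of its own kind. The same library held 204 CPM of Xist, and the part of this in the ratios was not tested.

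**Figure D3:**
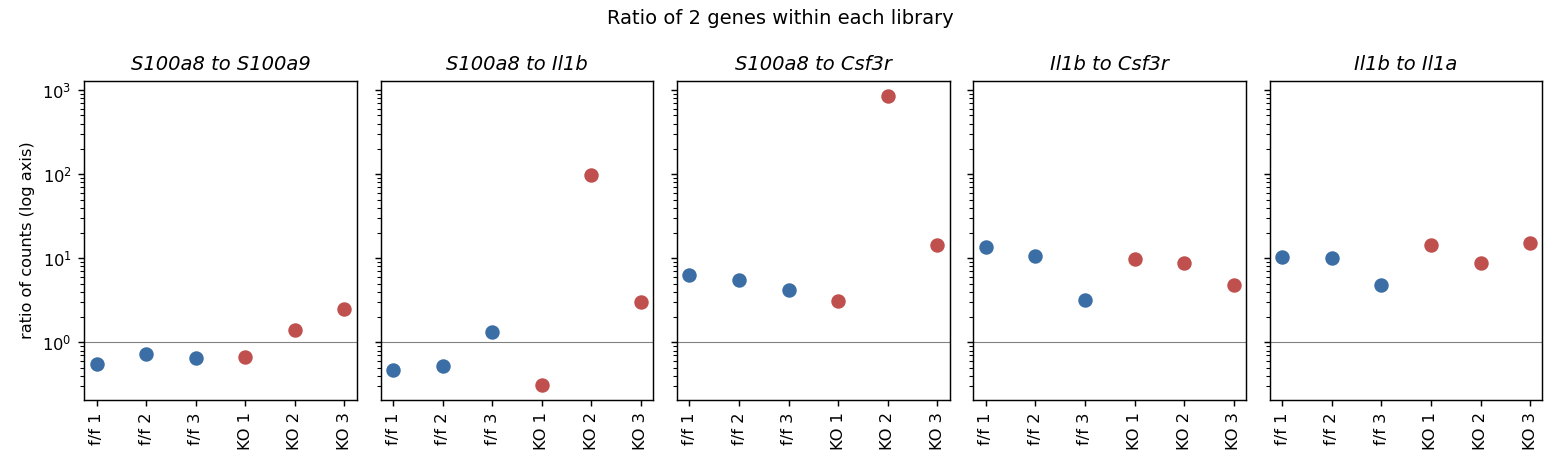
Ratio of the counts of 2 genes within each library, on a log axis, with blue points for Nsd2 f/f and red points for Nsd2 Vil-KO replicates 1 to 3. The ratios of S100a8 to Il1b (97.6) and to Csf3r (862) stand apart in Nsd2 Vil-KO replicate 2, and those of Il1b to Csf3r and to Il1a do not.

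The genes whose profile over the 6 libraries was most like that of a member were sought among 13340 genes that averaged 1 CPM or more, by the root mean square difference of centred log2 CPM. For S100a8 the nearest were S100a9 (0.77), the plasminogen activator gene Plat (0.81) and the collagenase gene Mmp13 (0.83). Plat had 233 CPM in Nsd2 Vil-KO replicate 2 and 1.21 to 23.1 CPM in the other 5 libraries. For Il1b they were the chemokine gene Ccl3 (0.55), Il1a (0.59) and the activin subunit gene Inhba (0.59), and Ccl3 was at 29.0 CPM in Nsd2 f/f replicate 1 and at 0.404 to 8.09 CPM elsewhere. For Lyz2 they were Ccdc80 (0.15), Pilra (0.18) and Ifi211 (0.31). In Nsd2 f/f replicate 3 these stood at 0.0808 to 0.162 CPM, below its floor of 0.242 CPM, as did Mmp13 (0 CPM) and Inhba (0.0808 CPM). There the prior count of 2 weighs on the differences. For Cd68 the nearest were the adhesion receptor gene Cd44 (0.14), Jaml (0.15) and the haematopoietic myosin gene Myo1g (0.16). Csf3r lay 0.37 from Lyz2 and 2.71 from S100a8 on the same measure.

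Markers of the cell types these transcripts are known from were read from fixed lists. Of 20 neutrophil granule and surface genes, 15 were tested, 0 passed the criterion in either direction, 13 were lower in Nsd2 Vil-KO and the median log2 fold change came to −1.71, which turned to 0.66 without Nsd2 f/f replicate 1. The summed level of the list was 1129 to 1595 CPM among Nsd2 f/f and 1164 to 1699 CPM among Nsd2 Vil-KO, and 2 genes made up most of it. Cd177, a neutrophil surface protein, had 912 to 1032 CPM among the Nsd2 f/f libraries and 916, 286 and 955 CPM among the Nsd2 Vil-KO libraries. Ly6g, the antigen of neutrophil antibodies, had 197 to 237 CPM among the Nsd2 f/f libraries and 191, 1355 and 163 CPM among the Nsd2 Vil-KO libraries. In Nsd2 f/f replicate 3, where Csf3r had 9 counts and Cxcr2 none, they stood at 925 and 197 CPM, so neither followed the other neutrophil markers. Ly6g belongs to a family of close copies, between which reads could be split. Ltf, the lactoferrin gene, was the third most abundant, with 66.6, 32.4 and 2.42 CPM among Nsd2 f/f and 35.1, 16.98 and 41.7 CPM among Nsd2 Vil-KO.

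Left without Cd177 and Ly6g, a choice made after their values were seen, the other 18 neutrophil genes summed to 326, 63.9 and 7.19 CPM among the Nsd2 f/f libraries and to 75.5, 57.6 and 46.1 CPM among the Nsd2 Vil-KO libraries. Nsd2 f/f replicate 1 was the highest library for each of the 13 of them that were tested. Retnlg, a granulocyte resistin-like gene, had 48.7, 3.01 and 0.97 CPM among Nsd2 f/f and 4.14, 13.04 and 0.102 CPM among Nsd2 Vil-KO, and Hdc, for histidine decarboxylase, had 59.8, 8.39 and 0.727 CPM and 9.70, 1.16 and 0.971 CPM. Within Nsd2 Vil-KO, Retnlg was thus highest in the library where S100a8 was highest, and Hdc was not. The granule genes of immature neutrophils, Mpo and Elane, had means of at most 0.109 CPM in either genotype, and Elane was at 0 counts in 5 of 6 libraries. Other granule genes of the list were higher in single libraries. Ngp had 5.30, 0 and 0.162 CPM among Nsd2 f/f and 0.439, 7.49 and 0 CPM among Nsd2 Vil-KO. Camp had 1.09 CPM in Nsd2 f/f replicate 1 and at most 0.0975 CPM elsewhere.

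Of 18 monocyte and macrophage genes, 17 were tested, 0 passed as higher and 1 as lower, and the median log2 fold change came to −0.93 with 17 of 17 lower, and to −0.30 without Nsd2 f/f replicate 1. The gene past the criterion was Ctss, for the protease cathepsin S, with 337, 413 and 474 CPM among Nsd2 f/f and 270, 288 and 218 CPM among Nsd2 Vil-KO (log2 fold change −0.66, unadjusted p = 0.0208, adjusted p = 0.992 by edgeR). Ctss was highest in Nsd2 f/f replicate 3, where the members were lowest, and lost the criterion when any 1 of Nsd2 f/f replicate 2, Nsd2 f/f replicate 3 and Nsd2 Vil-KO replicate 3 was left out. The list's sum, 514 to 537 CPM among Nsd2 f/f and 274.5 to 355 CPM among Nsd2 Vil-KO, did not overlap between genotypes, but without Ctss, again a choice made after seeing the values, it was 200.3, 100.3 and 60.5 CPM against 85.3, 40.1 and 56.1 CPM and did overlap. Mpeg1, for macrophage perforin, had 33.5, 14.4 and 1.70 CPM among Nsd2 f/f and 7.995, 4.33 and 4.80 CPM among Nsd2 Vil-KO. It ordered the Nsd2 f/f libraries as Lyz2 and Cd68 did.

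Of 10 genes shared by myeloid cells, 0 passed and 10 of 10 were lower in Nsd2 Vil-KO, with a median log2 fold change of −1.55, or −0.13 without Nsd2 f/f replicate 1. Their sum was 246, 92.5 and 49.7 CPM among Nsd2 f/f and 79.0, 76.8 and 60.6 CPM among Nsd2 Vil-KO. The Fc receptor genes Fcer1g, 1.94 to 35.9 CPM, and Fcgr3, 0.323 to 36.8 CPM, were highest in Nsd2 f/f replicate 1, as each of the 10 was. Of 10 leukocyte genes in general, 0 passed, 8 were lower and the median was −0.82, or −0.0093 without Nsd2 f/f replicate 1. Their sum was 276, 127 and 50.6 CPM among Nsd2 f/f and 122, 122 and 78.0 CPM among Nsd2 Vil-KO. In it, Lcp1 had 12.8 to 75.4 CPM and Coro1a 6.79 to 42.4 CPM, and Rac2, a GTPase of haematopoietic cells, had 60.9 CPM in Nsd2 Vil-KO replicate 2 against 4.04 to 30.0 CPM elsewhere. Nsd2 f/f replicate 1 was thus the highest and Nsd2 f/f replicate 3 the lowest library in this sum as in that of the members (1461 and 120 CPM), but Nsd2 Vil-KO replicate 2 was second for the members (1173 CPM) and not for the leukocyte genes. The part of leukocyte content in the members' values was not tested.

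**Figure D4:**
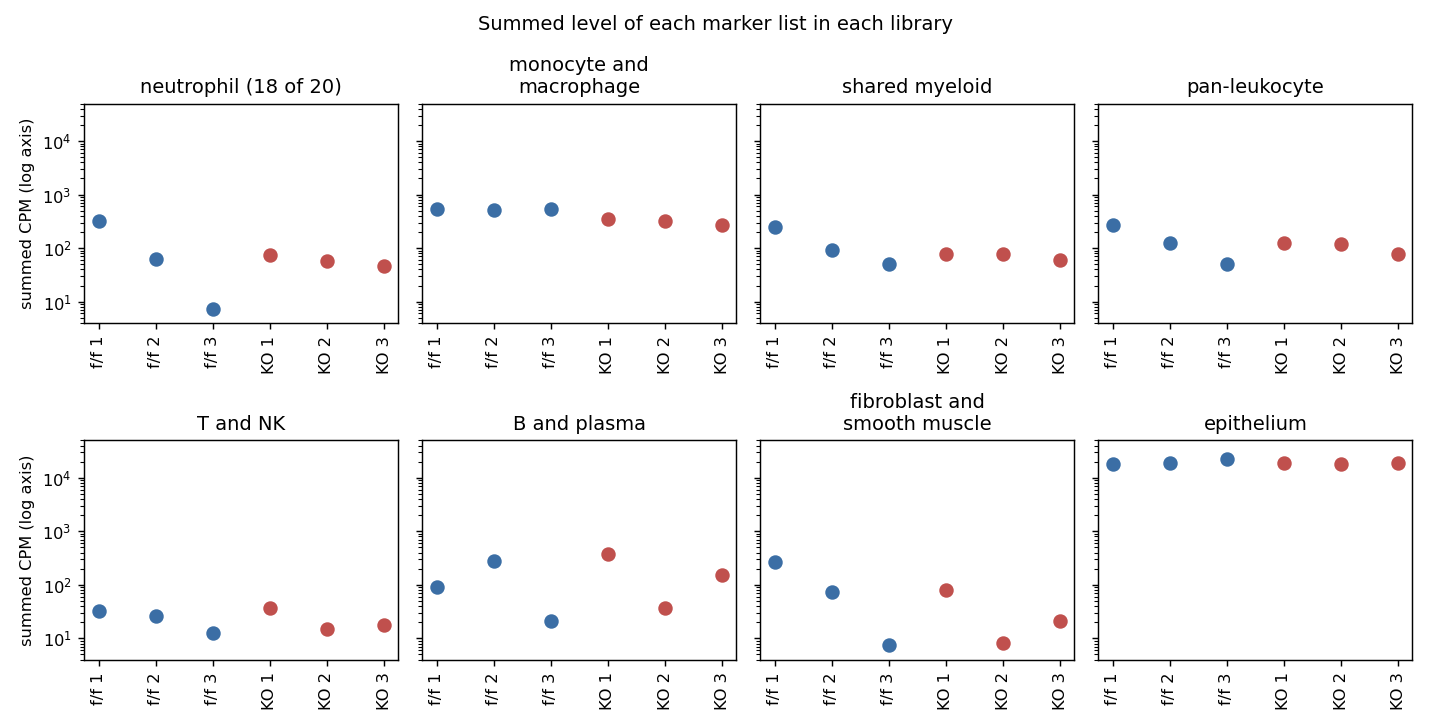
Summed CPM of 8 marker lists in each library, on a log axis, with blue points for Nsd2 f/f and red points for Nsd2 Vil-KO replicates 1 to 3. The neutrophil panel leaves out Cd177 and Ly6g. Epithelial genes sit between 18143 and 22370.2 CPM, while the neutrophil panel runs from 7.19 to 326 CPM and the stromal panel from 7.59 to 269 CPM.

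Markers of other cells also varied between libraries. Of 10 fibroblast and smooth muscle genes, 0 passed, 10 of 10 were lower and the median log2 fold change came to −1.28 (−0.25 without Nsd2 f/f replicate 1), with a summed level of 269, 72.0 and 7.59 CPM among Nsd2 f/f and 78.6, 8.27 and 21.3 CPM among Nsd2 Vil-KO. The collagen genes Col3a1, Col1a2 and Col1a1 led it, at 139, 46.1 and 40.7 CPM in Nsd2 f/f replicate 1 and 0.666, 0.388 and 0.444 CPM in Nsd2 Vil-KO replicate 2. Il1b, Il1a, Csf3r and Lyz2 had the same 3 lowest libraries as this stromal sum, whereas S100a8 did not. Of 10 T and NK cell genes, 0 passed, 6 were lower and the sum was 12.4 to 32.1 CPM among Nsd2 f/f and 15.3 to 37.0 CPM among Nsd2 Vil-KO, with Gzmb, Lck and Cd8a the most abundant at up to 13.85, 6.05 and 3.61 CPM. Of 7 B and plasma cell genes tested out of 8, 0 passed and 5 were lower, and the sum of 20.8 to 278 and 37.1 to 374 CPM was mostly Igha, 10.2 to 324 CPM, followed by Jchain, at up to 42.5 CPM, and Cd79a, at up to 5.02 CPM. Of 2 endothelial genes tested out of 6, Vwf passed as higher (log2 fold change 1.00, unadjusted p = 0.0351 by edgeR) and Pecam1 as lower (−1.33, unadjusted p = 0.0462 by edgeR), each at an adjusted p of 0.992. They ranged from 1.86 to 6.44 and from 0.499 to 2.75 CPM, and Cldn5 was at most 0.595 CPM. Vwf lost the criterion when any 1 of the 3 Nsd2 f/f libraries or Nsd2 Vil-KO replicate 3 was left out, and Pecam1 when any 1 library but Nsd2 Vil-KO replicate 1 was. Of the 10 epithelial genes, 0 passed, 5 were higher and 5 lower, and the median was 0.0049.

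Ligands that draw or sustain neutrophils and monocytes followed the same libraries in part. Of 13 chemoattractant and colony-stimulating factor genes, 11 were tested, 0 passed and 7 were lower in Nsd2 Vil-KO, with a median log2 fold change of −0.90, which turned to 0.23 without Nsd2 f/f replicate 1. Cxcl2, a ligand of CXCR2, had 172, 26.4 and 4.28 CPM among Nsd2 f/f and 30.4, 22.9 and 5.72 CPM among Nsd2 Vil-KO, close to the pattern of Il1b except in Nsd2 Vil-KO replicate 2. Ccl4, a chemokine of activated macrophages, had 49.1, 7.21 and 1.13 CPM and 11.8, 0.0555 and 1.02 CPM, the second Nsd2 Vil-KO value being below the floor of 3 counts. Cxcl5, a CXCR2 ligand of epithelial cells, ran another way, with 30.8, 15.2 and 3.80 CPM among Nsd2 f/f and 20.7, 41.3 and 66.1 CPM among Nsd2 Vil-KO (log2 fold change 1.35, unadjusted p = 0.0981, adjusted p = 0.992 by edgeR).

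Genes that receive, release or restrain IL-1 and TNF were also read. Of 14, 0 passed, 7 were higher and 7 lower and the median log2 fold change came to −0.024, with a summed level of 940 to 1243 CPM among Nsd2 f/f and 1212 to 1238 CPM among Nsd2 Vil-KO. Gsdmd, the pore-forming protein of IL-1β release, had 221 to 366 CPM over the 6 libraries, and Casp1, the protease that matures IL-1β, had 115 to 202 CPM. The TNF receptor gene Tnfrsf1b had 150, 108 and 32.2 CPM among Nsd2 f/f and 158, 155 and 184 CPM among Nsd2 Vil-KO (log2 fold change 0.77, unadjusted p = 0.157 by edgeR). The sum hid single genes that varied as Il1b did: Nlrp3, for the inflammasome sensor upstream of CASP1 and named after its values were seen, ran from 16.7 CPM in Nsd2 f/f replicate 1 to 1 count in Nsd2 f/f replicate 3.

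Of 8 receptors and partners of CD14 and calprotectin, 1 passed as higher and 0 as lower, and the median log2 fold change came to 0.12. The gene was Lbp, for the lipopolysaccharide-binding protein that passes its ligand to CD14, with 9.31, 9.22 and 3.80 CPM among Nsd2 f/f and 2.68, 42.9 and 67.5 CPM among Nsd2 Vil-KO (log2 fold change 2.33, unadjusted p = 0.0463, adjusted p = 0.992 by edgeR). Its genotypes overlapped, and it lost the criterion without any 1 of 5 libraries, all but Nsd2 Vil-KO replicate 1. Tlr4, Tlr2 and Ticam1 had 22.7 to 45.8, 13.98 to 32.2 and 31.0 to 56.0 CPM. Of 9 lysozyme and lysosome genes, 0 passed as higher and 1 as lower with a median of 0.028. Ctsb, Lamp1 and Ctsz were abundant at 473 to 599, 318 to 475 and 168 to 380 CPM, and these 3 genes did not share the wide spread of Lyz2 and Cd68 over libraries.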

How the data were processed

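RNA-seq libraries of colon IECs from DSS-treated mice (3 Nsd2 f/f, 3 Nsd2 Vil-KO) were grouped by their labels. Raw, whole-number read counts for each Ensembl gene were deposited by the authors, not normalised. According to the methods and the submitters' processing notes, polyA RNA was sequenced in paired ends, and trimmed reads were aligned to the mouse genome (GRCm38, mm10) with HISAT2. Which program counted the reads, and whether by strand, are not given in the sources used here, and the labels and methods name different library kits. Nothing says that libraries came from separate mice, so p-values measure the spread between these libraries. No 2 libraries were identical, and 0 columns were left unused.

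Counts were analysed with edgeR 4.0.16 in R 4.3.3: TMM factors, filterByExpr by genotype (14650 genes), and the robust quasi-likelihood test without covariates, adjusted by Benjamini-Hochberg over all genes tested. The biological coefficient of variation was 41.2%. Log2 CPM used a prior count of 2, and CPM values used none. Exact permutation tests were run for single members. Intervals and floors cover counting error only. Exon lengths and coordinates came from GENCODE vM21, upstream sequence from RefSeq, with 9 of the 10 members matched by symbol, and primer sequences from the study's primer list. The test was tried on simulated counts. Limma 3.58.1 (voom) and DESeq2 1.42.0 were alternatives, and figures used matplotlib 3.10.9.

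Members and lists were chosen with earlier results of these data known. The rule for named genes took Nsd2, Xist, the members, Lyz1, the 3 most abundant genes of each list, each list gene past the criterion, and the 3 genes nearest in profile to S100a8, Il1b, Lyz2 and Cd68. Retnlg, Hdc, Mpo, Elane, Ngp and Camp were added after their values were seen. Not every gene chosen in this way is reported here. Results were recomputed under 17 other settings, and under 1 chosen after seeing the data. The labels do not say that equal replicate numbers pair libraries. Correlations of same-numbered deviations were 0.32, −0.35 and −0.11, which cannot settle it with so few libraries.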

Additional observations from a re-analysis of the deposited data

How the results depend on the processing

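No alternative brought a member to an adjusted p below 0.05. The number of members past the criterion, 0, was 1 with the replicate block (Il1a, log2 fold change −2.17, unadjusted p = 0.0209 by edgeR) and 0 to 2 with each library left out: without Nsd2 f/f replicate 3 it was Il1a, and without Nsd2 Vil-KO replicate 1 it was Il1a and Il1b. The replicate block gave 303 genes past the criterion in place of 482, and turned Cxcr2 to 0.017 and Cd68 to 0.0082. The count was 279 at a fold change above 2, 861 without a filter, 742 with DESeq2 and 1440 with limma-voom with quality weights. It was 1646 in the 4 libraries low in Xist and 1145 with Xist as a covariate. With each library left out it was 323 to 769, lowest without Nsd2 f/f replicate 2 and highest without Nsd2 Vil-KO replicate 2. The cause was not tested.

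S100a8 turned to −1.01 with limma-voom, −2.03 in the 4 libraries and −0.45 with Xist as a covariate. S100a9 turned to −2.06, −2.77 and −1.20 under the same 3, and to −0.077 with library size only. Tnf turned to −0.043 with limma-voom and −0.26 in the 4 libraries. With each library left out, log2 fold changes ran from −1.47 to 3.48 for S100a8, −2.22 to 2.58 for S100a9, −4.59 to 0.23 for Il1b, −1.74 to 1.09 for Cxcr2, −3.45 to 0.29 for Csf3r, −2.61 to 0.49 for Lyz2, −0.76 to 0.54 for Cd68 and −0.35 to 1.04 for Tnf. Il1a and Cd14 kept their sign under each alternative that gave a value. The median of the members was 0.013 with the replicate block and 0.13 with at least 10 counts in each library, a filter that dropped Il1a, Cxcr2 and Csf3r, and −1.80 in the 4 libraries. Of 167 log2 fold changes of members under alternatives, 141 kept direction and side of the criterion. The members' low counts in Nsd2 f/f replicate 3 limit the precision of each ratio that uses it.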
